A study of Mus musculus with 9 samples.

Results

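Expression of 8 genes for membrane proteins that γ-secretase is known to cut, other than the Notch receptors, was examined in sorted mouse bone marrow progenitors. The genes were App, Aplp2, Cd44, Lrp1, Sorl1, Cdh1, Spn and Tnfrsf1a. All probe sets whose single platform symbol is 1 of these names were taken, which gave 22 of the 45101 probe sets on the array, where a probe set is a group of short probes read as 1 measurement. App had 4 probe sets, Aplp2 5, Cd44 4, Lrp1 2, Sorl1 3, Spn 2, and Cdh1 and Tnfrsf1a 1 each. Between the sets of 1 gene the signal could differ widely, so levels were compared between groups for each set and not between sets.

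γ-Secretase is a protease complex inside the membrane, and nicastrin, the product of Ncstn, is the subunit that receives its substrates. A substrate is first cut outside the cell by a sheddase, such as an ADAM protease or BACE1, and γ-secretase then cuts the remaining stump within the membrane and frees the intracellular tail. The cut acts on the protein, so an mRNA level shows how much message for a substrate a cell holds and not how much of the protein is cut.

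The arrays form 3 groups of 3 each. GMP NcstnKO are granulocyte-monocyte progenitors (lineage-negative, cKit+, Sca1-, CD34+, FcγRII/III+) from Ncstn flox/flox Mx1-cre+ mice. GMP WT are the same gate from Ncstn flox/flox littermates without the transgene, and LSK WT are lineage-negative, cKit+, Sca1+ cells, the stem and multipotent fraction, also from Ncstn flox/flox mice. All mice had polyIC by injection, 3 times in all, from 14 days of age (20 µg per g body weight), which induces interferon and so drives the interferon-responsive Mx1 promoter of the Cre, and cells were taken 4 weeks later at 6 weeks of age. Only the knockouts carried Mx1-cre, so the transgene and the loss of nicastrin cannot be told apart. The arrays average over all sorted cells, so fewer cells of a type and less RNA per cell cannot be told apart. The labels do not state whether each array came from a separate mouse, and p-values measure the spread between these arrays.

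The targeted transcript was lower in the knockout arrays on 1 of its 2 probe sets. The brighter Ncstn probe set read 7.79, 7.78 and 7.76 (log2 intensity) in GMP NcstnKO, against 9.25, 9.31 and 9.26 in GMP WT and 9.13, 9.02 and 8.99 in LSK WT (log2 fold change of knockout against WT GMP −1.50, SE 0.08, limma adjusted p = 0.00132). The dimmer set, 1444532_at, did not pass the test: it read 6.29, 6.62 and 6.68 in GMP NcstnKO, against 6.81, 6.13 and 6.24 in GMP WT (0.13, SE 0.19, adjusted p = 0.753). The mean of both sets gave −0.68 (adjusted p = 0.0249), and where either set lies relative to the deleted part was not analysed here. With the Actb ratio described below as a covariate no probe set on the array was called, with the brighter Ncstn set at −1.46 (adjusted p = 0.184). Without the 4 arrays named next that set was also at −1.46, from 1 array in each GMP group. In 4 GMP arrays the Xist and Y-linked transcripts went against the labelled sex. These were arrays 2 and 3 of GMP WT and of GMP NcstnKO, so a fit without them keeps 1 array in each GMP group. By transcripts all 3 knockout arrays were female, and 1 of 3 in each other group. The Actb ratio, the log2 ratio between the 3 prime and 5 prime control probe sets for Actb, depends on RNA length and was 0.899 ± 0.14 in GMP NcstnKO and 0.577 ± 0.111 in GMP WT (SD, n = 3 each; exact 2-sided permutation p = 0.1, the smallest possible here). Most markers of the labelled gates differed in the direction of the labels. All 8 measured genes of the stem list were lower in GMP WT than in LSK WT. Of 10 genes of the GMP list 7 were higher and 2, Kit and Cd34, lower. Markers of mature cells differed too, in a comparison where 28.8% of all probe sets were called lower and 6.04% higher in GMP WT. Here 12 of 13 B, T and NK cell sets and 13 of 15 late neutrophil sets were lower, and 1 and 0 higher. Of 10 mast cell, basophil and eosinophil sets 8 were higher and 0 lower. The part of such cells was not tested. Ly6a, which encodes Sca1, was not analysed here.

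No substrate probe set passed the test between knockout and WT GMP. Of the 22 probe sets, 0 were called in GMP NcstnKO against GMP WT (limma, Benjamini-Hochberg adjusted p under 0.05 over 45037 probe sets), where 1.75% of all probe sets were called. At an unadjusted p under 0.05 there were 6 of 22, and 19.8% of all probe sets. In 8 sets the 3 knockout arrays all lay below the 3 WT arrays and in 0 all above. Over all probe sets 12.3% were separated in this way with the knockout lower, and 27.2% in either direction. Of these 8 sets 4 belong to Aplp2, 2 to Cd44 and 1 each to Sorl1 and Tnfrsf1a, and sets of 1 gene are not independent. The median log2 fold change was −0.21 over the 22 sets and 0.04 over all probe sets.

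**Figure D1:**
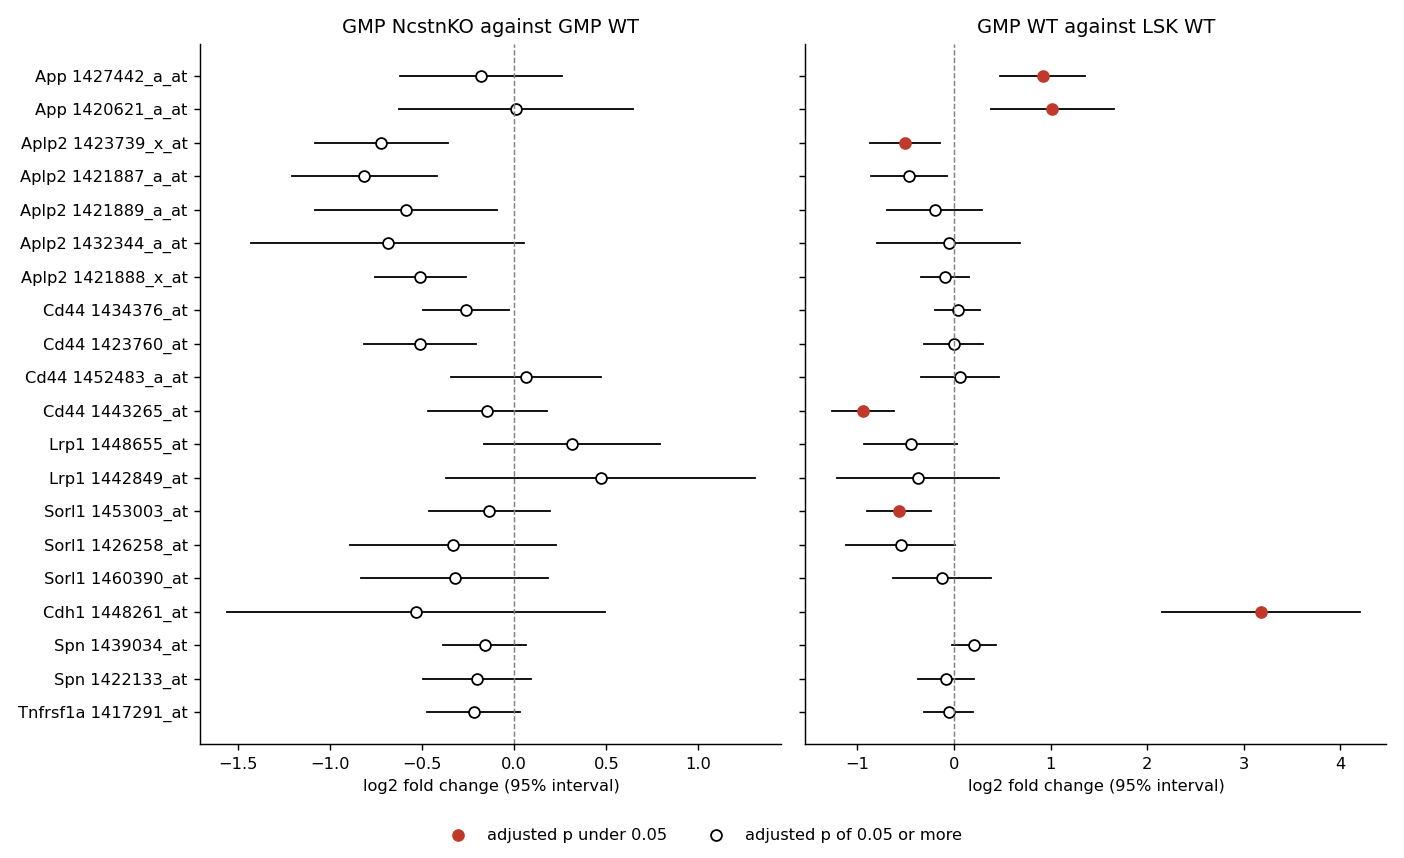
Log2 fold changes (points) with 95% intervals (lines) of the 20 substrate probe sets that were above background on at least 1 array, for GMP NcstnKO against GMP WT (left) and GMP WT against LSK WT (right); the horizontal scales differ. All 5 Aplp2 points lie left of 0 on the left side and none is filled (passed the test) there, while Cdh1 at 3.18 stands far to the right of all others on the right side; the filled point of the Cd44 set 1443265_at rests on GMP arrays at background.

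Between the wild-type groups the largest difference belonged to Cdh1, and App also differed. Of the 22 sets, 3 were higher and 3 lower in GMP WT than in LSK WT. Together they are 27.3% of the members, beside 34.9% of all probe sets called in this comparison. Higher calls made up 6.04% of all probe sets and lower calls 28.8%. The arrays of the groups did not overlap in 9 members, 4 higher and 5 lower, beside 51.8% of all probe sets (11.5% higher and 40.3% lower), and 7 members had an unadjusted p under 0.05, beside 45.6%. These shares depend on the scale of the deposited values, in which the median log2 difference of all probe sets was −0.20. Quantile normalization moved it to 0.06 and centring each array on its 75th percentile to 0.15, and the 6 members called were then 4 higher and 2 lower, and 5 higher and 1 lower. Over all probe sets the deposited split of 2722 higher and 12988 lower became 7912 higher and 5798 lower, and 12180 higher and 5830 lower. In the comparison of knockout with WT GMP the all-gene median moved little between these scales (0.02 and 0.07), and 0 members were called under either.

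App encodes the amyloid precursor protein, a type I membrane protein, and Aplp2 its close relative, amyloid precursor-like protein 2. The promoters of both are shown because App was higher and the brightest Aplp2 set lower in GMP WT than in LSK WT on the deposited scale, although they belong to 1 family. The Aplp2 difference passed on 1 of its 5 sets only, and there under 7 of 18 alternatives, so it is not established. They are from RefSeq (GRCm38.p6) and run from 250 bases before to 50 bases after the annotated start, 5′ to 3′ on the minus strand, at chr16:85173658-85173957 for App and chr9:31211799-31212098 for Aplp2. Capitals mark the GC box (GGGCGG on either strand), the short motif bound by SP family factors.
App: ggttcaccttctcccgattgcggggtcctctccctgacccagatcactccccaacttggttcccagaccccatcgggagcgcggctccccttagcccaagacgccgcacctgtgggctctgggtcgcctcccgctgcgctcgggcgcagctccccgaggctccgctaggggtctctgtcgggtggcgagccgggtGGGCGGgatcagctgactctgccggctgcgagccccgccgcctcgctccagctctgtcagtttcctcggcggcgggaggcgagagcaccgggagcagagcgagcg
Aplp2: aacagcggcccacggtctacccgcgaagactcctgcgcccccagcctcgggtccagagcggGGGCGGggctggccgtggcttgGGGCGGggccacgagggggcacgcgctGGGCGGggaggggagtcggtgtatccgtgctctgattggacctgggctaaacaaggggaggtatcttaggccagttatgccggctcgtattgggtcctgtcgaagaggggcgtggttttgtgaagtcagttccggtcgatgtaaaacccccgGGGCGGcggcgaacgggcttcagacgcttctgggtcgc
The App window held 1 GC box and the Aplp2 window 4, where 35.7% of the 32851 promoters in the table hold at least 1. The App window had a GC content of 71.0% with 30 CpG sites and the Aplp2 window 67.0% with 29, against medians of 52.7% and 7 over all promoters. The motif TGGGAA, bound by the Notch effector RBPJ, occurred once in the App window and in none of the Aplp2 window, and in 25.6% of all promoters. Neither window held TATAAA, which 13.6% of all promoters do. Of the 8 genes, 7 were in the table with 8 windows, of which 5 held a GC box, 3 TGGGAA and 0 TATAAA; matches are a description and not evidence of binding.

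App stood higher in granulocyte-monocyte progenitors than in the stem fraction. Its brightest set (1427442_a_at) read 10.97, 10.88 and 11.09 in GMP WT, against 9.91, 9.80 and 10.47 in LSK WT, which do not overlap. The log2 fold change was 0.92 (1.89-fold, SE 0.19, adjusted p = 0.00725). A second set (1420621_a_at) gave 9.13, 9.26 and 9.33 in GMP WT and 8.15, 7.70 and 8.80 in LSK WT, again without overlap (log2 fold change 1.02, SE 0.28, adjusted p = 0.0220). In LSK WT the array numbered 3 was the highest in both sets. Once the Actb ratio entered the fit the log2 fold changes were 0.73 (adjusted p = 0.0514) and 0.62 (adjusted p = 0.128). Without the 4 arrays whose transcripts go against the labelled sex, which leaves 1 GMP WT array, they were 0.91 and 0.91. The second set also missed the threshold without LSK WT array 1 or 2 or GMP WT array 2 or 3, with adjusted p between 0.0598 and 0.0644.

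No difference in App was detected between knockout and WT GMP. The brightest set read 10.52, 10.89 and 10.995 in GMP NcstnKO, which overlap the GMP WT values above (log2 fold change −0.18, 95% interval −0.62 to 0.26, adjusted p = 0.659). The second set read 8.81, 9.54 and 9.39 (0.01, interval −0.63 to 0.64). In both sets knockout array 1 was the lowest of the 6 GMP arrays. The other App sets (1438373_at and 1438374_x_at) lay between 2.55 and 3.11 on all 9 arrays, below the background limits of 4.30 to 4.57 set by bacterial control probe sets, and they bear on no comparison.

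Aplp2 was separated between knockout and wild-type GMP on 4 of its 5 sets, and did not pass the test. The set 1421887_a_at read 10.18, 10.49 and 10.55 in GMP NcstnKO, against 11.40, 11.00 and 11.27 in GMP WT and 11.85, 11.37 and 11.84 in LSK WT. Every knockout array lay below every WT array, with a gap of 0.45. The log2 fold change against GMP WT was −0.81 (SE 0.17, 95% interval −1.21 to −0.42, adjusted p = 0.0556).

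The other Aplp2 sets pointed the same way. The brightest set, 1423739_x_at, read 10.27, 10.61 and 10.58 in GMP NcstnKO and 11.39, 10.95 and 11.28 in GMP WT (log2 fold change −0.72, SE 0.16, adjusted p = 0.0599). Of the dimmer sets, 1421888_x_at gave −0.51 (SE 0.11, adjusted p = 0.0570) and 1421889_a_at −0.59 (SE 0.22, adjusted p = 0.183), both without overlap. The set 1432344_a_at gave −0.69 (SE 0.33, adjusted p = 0.284), and its knockout array 3 read 4.74 beside 5.90 and 6.03 in the others. The suffix _x_at marks sets in which some probes may also bind other sequences, and the result for the _a_at set 1421887 does not rest on such probes.

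Aplp2 crossed the threshold under 4 of the alternatives. With 1 probe set per gene the brightest set had adjusted p = 0.0383, with the mean of the 5 sets −0.66 and adjusted p = 0.0471, and without the dimmest 40% of probe sets 3 of the 5 sets passed (adjusted p = 0.0420, 0.0434 and 0.0453). With 16 added to the intensity 1421888_x_at passed (−0.38, adjusted p = 0.0462). Leaving out 1 array at a time gave −0.93 to −0.70 for 1421887_a_at, with adjusted p between 0.0956 and 0.191. Other covariates moved the size more: the value was −0.54 (adjusted p = 0.616) with the Actb ratio and −0.99 (adjusted p = 0.136) with transcript sex. Without the 4 arrays whose transcripts go against the labelled sex, which leaves 1 array in each GMP group, it was −1.22.

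On the deposited scale the brightest Aplp2 set was lower in GMP WT than in the stem fraction. The brightest set read 11.39, 10.95 and 11.28 in GMP WT, against 11.87, 11.50 and 11.78 in LSK WT (log2 fold change −0.51, SE 0.16, adjusted p = 0.0364). The call was lost after quantile normalization (−0.42, adjusted p = 0.0696), with the replicate number as a block (adjusted p = 0.0501) and after centring (−0.16, adjusted p = 0.460). It was also lost with the mean of the 5 sets (−0.26, adjusted p = 0.175) and with label sex or the Actb ratio in the fit (adjusted p = 0.126 and 0.0573). Without the 4 arrays whose transcripts go against the labelled sex, which leaves 1 GMP WT array, the value was −0.32. Leaving out LSK WT array 1 or 3 or GMP WT array 2 or 3 also lost the call (adjusted p of 0.0678 to 0.115). The other 4 sets did not pass. On the deposited scale the group means of all 5 sets were lowest in knockout GMP, next in WT GMP and highest in LSK, and this order was not established on the other scales.

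**Figure D2:**
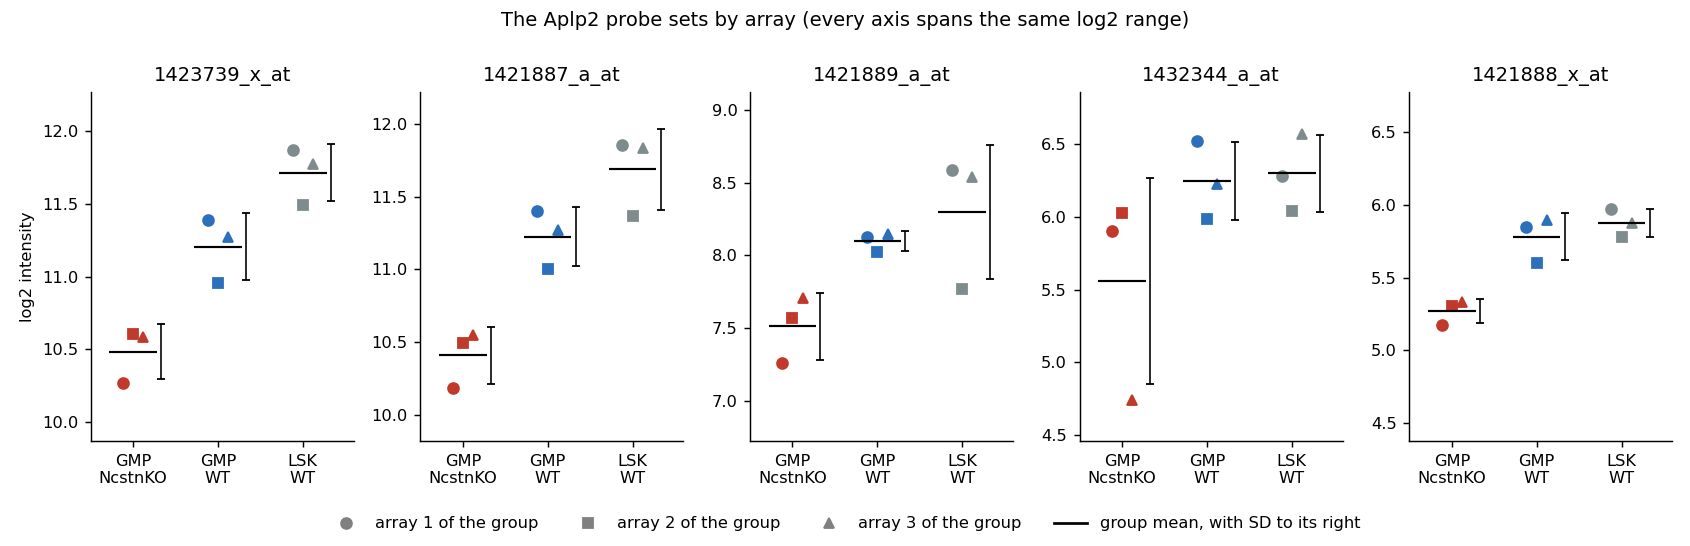
Log2 intensity of the 5 Aplp2 probe sets on each array (symbols), with group means (bars) and SD (lines to the right), for GMP NcstnKO, GMP WT and LSK WT. In 4 of the 5 sets the knockout arrays lie below all WT GMP arrays, and in 1432344_a_at knockout array 3 at 4.74 stands apart.

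Some transcripts of several other cell types had the same order of group means as Aplp2 on the deposited scale. Over all probe sets 1.15% were called lower and 0.604% higher in GMP NcstnKO against GMP WT. Of 23 erythroid marker probe sets 5 fell in this comparison and 0 rose. The summed intensity of the 17 measured genes ran from 13511 to 18010 in GMP NcstnKO, from 23955 to 39801 in GMP WT and from 47378 to 57352 in LSK WT. Hba-a1 was at background on all arrays, and Klf1, an erythroid transcription factor gene, averaged 8.28, 10.29 and 11.74 in these groups. Of 22 macrophage and monocyte sets 3 fell in the knockout and 0 rose, among them the complement genes C1qc (means of 4.93, 6.39 and 7.14 in GMP NcstnKO, GMP WT and LSK WT, adjusted p = 0.0209 for the knockout) and C1qa (5.43, 6.34 and 6.76, adjusted p = 0.0392). The macrophage and monocyte list as a whole did not have this order. Its summed intensity was 11240 to 14908 in GMP NcstnKO, 12822 to 16186 in GMP WT and 7430 to 10861 in LSK WT. Between the WT groups 8 of its sets were higher and 3 lower in GMP WT, beside 6.04% and 28.8% of all probe sets. Of 12 megakaryocyte and platelet sets 1 fell, that of Vwf (7.36, 8.40 and 9.21, adjusted p = 0.0458), and 0 rose. The summed intensity of this list was 3666 to 5141 in GMP NcstnKO, 4419 to 6715 in GMP WT and 7191 to 11125 in LSK WT. These marker genes were named after their values were seen, and the part of such cells in the Aplp2 values was not tested.

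Lrp1 and Sorl1 encode large endocytic and sorting receptors, which carry ligands and, in the case of SORL1, steer APP through endosomes. The brightest Lrp1 set (1448655_at) read 6.90, 7.72 and 7.54 in GMP NcstnKO, against 7.06, 7.27 and 6.90 in GMP WT, which overlap. The log2 fold change was 0.31 (95% interval −0.17 to 0.79, adjusted p = 0.455). The second set (1442849_at) read 5.20, 6.20 and 6.80 in GMP NcstnKO and 5.79, 5.49 and 5.52 in GMP WT (0.47, interval −0.37 to 1.31). Knockout array 1 was the lowest knockout array in both sets, and its distance from the other knockout arrays exceeds the spread within GMP WT.

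Against LSK WT, which read 7.33, 7.57 and 7.68, the brightest Lrp1 set in GMP WT gave a log2 fold change of −0.45 (SE 0.21, adjusted p = 0.129). The arrays do not overlap. Fitted without the knockout arrays the adjusted p was 0.0476, and the sign turned to 0.13 after quantile normalization.

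Sorl1 was lower in GMP WT than in the stem fraction on its brightest set. The set 1453003_at read 10.38, 10.65 and 10.87 in GMP WT, against 11.15, 11.09 and 11.37 in LSK WT (log2 fold change −0.57, SE 0.14, adjusted p = 0.0165). After centring on the 75th percentile it was −0.22 (adjusted p = 0.256), with the mean of the 3 sets −0.42 (adjusted p = 0.0689), and without GMP WT array 1 or LSK WT array 3 it just missed the threshold (adjusted p = 0.0505 and 0.0516). Without the 4 arrays whose transcripts go against the labelled sex, which leaves 1 GMP WT array, it was −0.83. Neither of the other sets passed, although 1426258_at also did not overlap between the groups (9.10, 9.10 and 9.16 in GMP WT, against 9.58, 9.35 and 10.10 in LSK WT).

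In knockout GMP the brightest Sorl1 set read 10.64, 10.49 and 10.37, which overlap GMP WT, with array 3 just below the lowest WT array (log2 fold change −0.14, 95% interval −0.47 to 0.20, adjusted p = 0.655). The set 1426258_at read 8.27, 8.98 and 9.12 in GMP NcstnKO, with array 1 apart from the others (−0.33, adjusted p = 0.500). The dimmest set, 1460390_at, had knockout arrays at 7.37, 7.50 and 7.19 and WT arrays at 7.55, 7.66 and 7.82 (−0.32, adjusted p = 0.467), separated by 0.05.

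Cd44, Spn and Cdh1 encode adhesion molecules. CD44 is the main receptor for hyaluronan, CD43 (the product of Spn) is a mucin-like sialoglycoprotein of white blood cells, and E-cadherin, from Cdh1, is the cell-to-cell adhesion protein of epithelia. Cdh1 gave the widest difference between WT groups among the members. Its only set read 9.12, 9.73 and 10.06 in GMP WT, against 6.10, 6.19 and 7.07 in LSK WT. The lowest GMP array lay 2.05 above the highest LSK array, with a log2 fold change of 3.18 (9.07-fold, SE 0.45, adjusted p = 0.00118). It passed under each of the 18 alternatives tried, from 2.66 to 3.63 with adjusted p up to 0.0470.

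Between the WT groups 6.04% of all probe sets were called higher and 28.8% lower in GMP WT. Among cell type markers, 8 of 10 mast cell, basophil and eosinophil probe sets were also higher in GMP WT and 0 lower. Their summed intensity was 30901 to 36842 in GMP NcstnKO, 36309 to 44761 in GMP WT and 10291 to 15896 in LSK WT, and all 8 genes were above background on every array. Of 22 macrophage and monocyte sets 8 were higher in GMP WT and 3 lower, with summed intensities of 11240 to 14908 in GMP NcstnKO, 12822 to 16186 in GMP WT and 7430 to 10861 in LSK WT. Of 23 erythroid marker sets 7 were lower in GMP WT and 0 higher, where 28.8% of all probe sets were lower. The part of these cells in the Cdh1 values was not tested.

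In knockout GMP the Cdh1 set read 9.74, 9.45 and 8.11, with array 3 well below the other arrays. The log2 fold change against GMP WT was −0.54 (SE 0.45, 95% interval −1.56 to 0.49, adjusted p = 0.557). It was −0.04 without knockout array 3, so that array sets the size. Without the 4 arrays whose transcripts go against the labelled sex, which leaves 1 array in each GMP group, the difference was 0.62.

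Cd44 was bright on 3 of its 4 sets. The set 1423760_at read 11.03, 11.24 and 11.17 in GMP NcstnKO, against 11.54, 11.71 and 11.73 in GMP WT, with no overlap (log2 fold change −0.51, SE 0.13, 95% interval −0.81 to −0.21, adjusted p = 0.0847). The brightest set, 1434376_at, read 11.77, 11.995 and 11.75 in GMP NcstnKO and 12.04, 12.07 and 12.18 in GMP WT (−0.26, SE 0.10, adjusted p = 0.207). The set 1452483_a_at did not share this: it read 9.97, 9.89 and 9.90 in GMP NcstnKO and 9.54, 10.15 and 9.88 in GMP WT (0.07, interval −0.34 to 0.47). The estimates of the 3 sets thus differ in sign, but their 95% intervals overlap (−0.49 to −0.03 for the brightest set) and none passed. A difference between the sets was not tested.

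Between the WT groups the brightest Cd44 set gave 0.04 (SE 0.10, 95% interval −0.19 to 0.27, adjusted p = 0.796), and 0.39 (adjusted p = 0.0183) after centring on the 75th percentile. The dim set 1443265_at read 3.41, 3.80 and 3.65 in GMP WT, not above background, and 4.57, 4.62 and 4.50 in LSK WT. The fit to the deposited values gave −0.94 (adjusted p = 0.00157). Computed against the higher of the background limit and the signal on each GMP array, the set was at least 1.17-fold lower in GMP WT. This bound was not tested, and the LSK WT values lie close to their own limits of 4.38, 4.46 and 4.37.

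Neither Spn set passed the test in either comparison. The set 1439034_at read 12.22, 12.40 and 12.08 in GMP NcstnKO, against 12.40, 12.38 and 12.40 in GMP WT and 12.16, 12.25 and 12.14 in LSK WT. The knockout difference was −0.16 (SE 0.10, 95% interval −0.39 to 0.07, adjusted p = 0.416). GMP WT against LSK WT, without overlap, gave 0.21 (interval −0.02 to 0.44, adjusted p = 0.134), and 0.56 (adjusted p = 0.00330) after centring on the 75th percentile. The second set, 1422133_at, gave −0.20 (interval −0.49 to 0.09, adjusted p = 0.427) in the knockout.

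Tnfrsf1a encodes TNF receptor 1, the widely expressed receptor through which TNF activates NF-κB or cell death. It read 10.11, 10.31 and 10.18 in GMP NcstnKO, against 10.35, 10.49 and 10.43 in GMP WT and 10.48, 10.65 and 10.31 in LSK WT. The knockout arrays lay below the WT GMP arrays by a gap of 0.03, with a log2 fold change of −0.22 (SE 0.11, 95% interval −0.47 to 0.03, adjusted p = 0.311). GMP WT and LSK WT overlapped (−0.06, interval −0.31 to 0.20, adjusted p = 0.725), and the sign turned after quantile normalization (0.15) and centring (0.29).

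**Figure D3:**
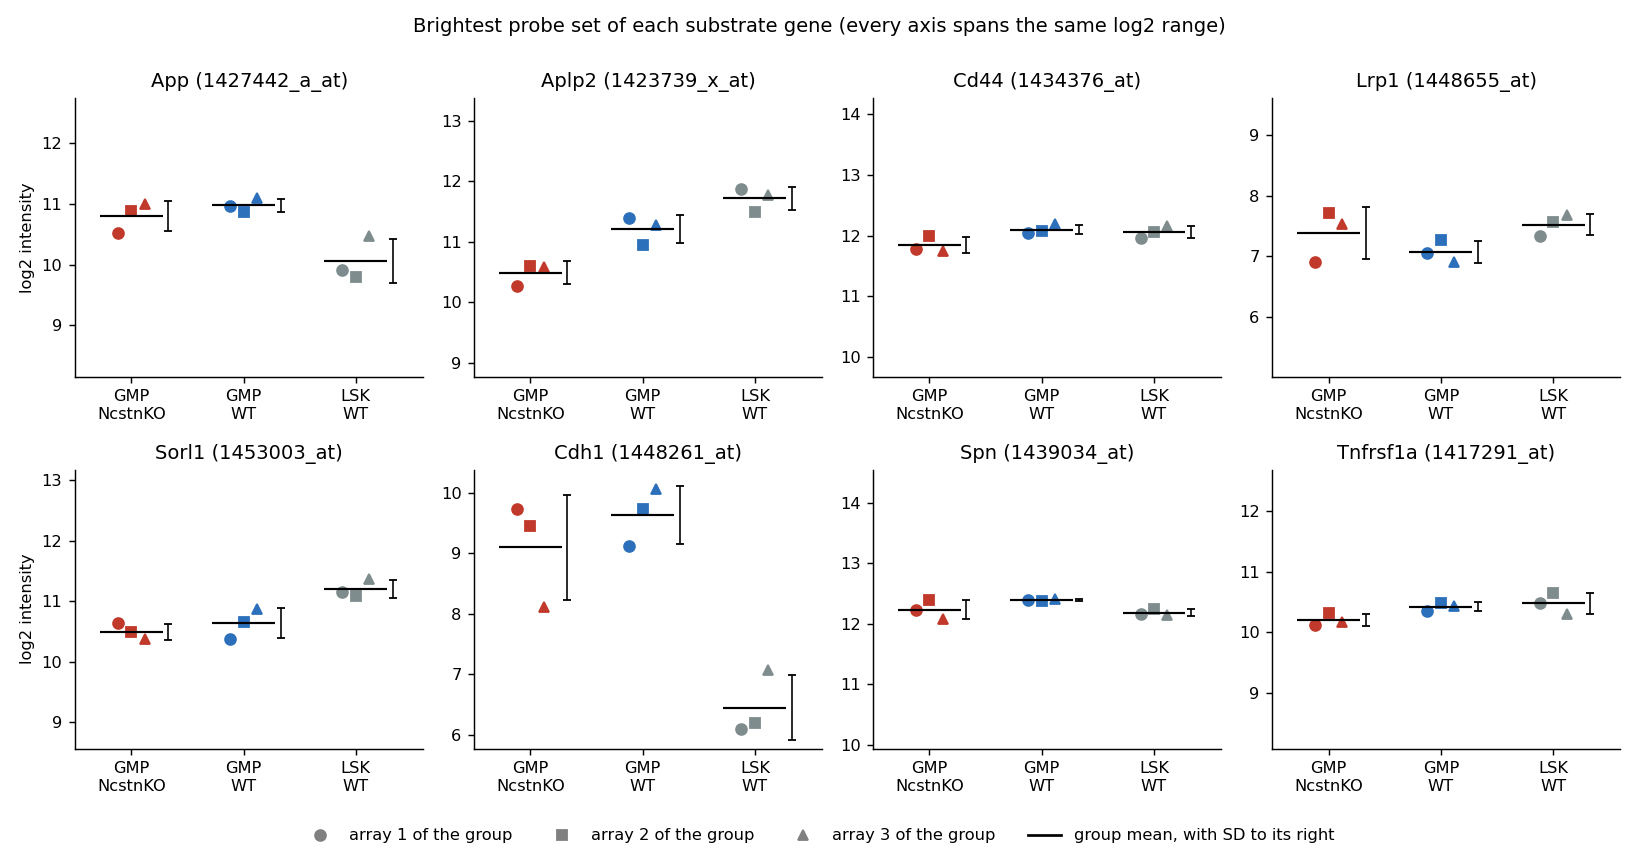
Log2 intensity of the brightest probe set of each of the 8 genes on each array (symbols), with group means (bars) and SD (lines to the right), for GMP NcstnKO, GMP WT and LSK WT; every vertical axis spans the same range. Cdh1 and App stand above LSK in both GMP groups, Aplp2 is lowest in GMP NcstnKO and highest in LSK WT on the deposited scale, and Spn, Cd44 and Tnfrsf1a lie within narrow ranges.

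The other components of the cutting step were counted in the same fits, in which 1.75% of all probe sets were called in the knockout comparison and 34.9% between the WT groups. In the latter 6.04% were higher and 28.8% lower in GMP WT on the deposited scale. Of 10 probe sets of 5 measured γ-secretase subunit genes, 1 fell in the knockout, the brighter of the 2 Ncstn sets, and 0 rose. Between WT groups 4 were lower in GMP WT, among them Aph1b (log2 fold change −1.91, SE 0.19, adjusted p = 0.000224), a scaffold subunit. Of 42 sets for sheddases and their regulators 4 were higher and 18 lower in GMP WT than in LSK WT. Bace1, the β-secretase that sheds APP, rose by 1.34 (SE 0.11, adjusted p = 0.000108), and the other 2 Bace1 sets called were also higher (1.04 and 1.02). Adam19, an ADAM metalloprotease (−2.63), the gelatinase Mmp9 (−3.23) and the metalloprotease inhibitor Timp2 (−2.44) were lower (adjusted p of 0.000243 to 0.000364). The mean over its probe sets gave −1.52 for Timp2. Mmp9 is also on the list of late neutrophil markers, of which 13 of 15 sets were lower in GMP WT and 0 higher. The summed intensity of that list was 51192 to 59293 in GMP NcstnKO, 35451 to 47520 in GMP WT and 75315 to 101781 in LSK WT, and the part of late neutrophils in these values was not tested. In the knockout Bace1 stood at −0.24 (adjusted p = 0.272), and of the 42 sets 0 rose and 1 fell, a set of Timp3, which inhibits ADAM17 (−1.03, SE 0.14, adjusted p = 0.0318).

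A list of other known γ-secretase substrates was counted next. Of 103 probe sets of 38 genes, 1 rose and 2 fell in GMP NcstnKO against GMP WT, where 0.604% of all probe sets were higher and 1.15% lower. Clstn1, which encodes the cargo adaptor calsyntenin-1, fell by 0.79 on the log2 scale (SE 0.12, adjusted p = 0.0328), with means of 9.45 in GMP NcstnKO, 10.24 in GMP WT and 11.76 in LSK WT. With the mean of its probe sets the value was −0.44 (adjusted p = 0.0759). A set of the growth factor receptor gene Igf1r (1452982_at) fell by 0.66 (SE 0.13, adjusted p = 0.0449), and the decoy receptor gene Il1r2 rose by 2.29 (SE 0.40, adjusted p = 0.0392). Il1r2 averaged 7.56 in GMP NcstnKO, 5.27 in GMP WT and 7.52 in LSK WT, so GMP WT was the low group. Between WT groups 9 of the 103 were higher and 47 lower in GMP WT. Vldlr, a relative of LRP1 (−4.27), the heparan sulfate proteoglycan gene Sdc1 (−3.31), the interleukin-1 receptor gene Il1r1 (−1.59) and Clstn1 (−1.53) were lower (adjusted p of 9.16e-05 to 0.000254). The mean over its probe sets gave −0.75 for Il1r1. The median log2 difference was −0.34 over these sets and −0.20 over all probe sets.

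Partners of single substrates were counted in the same way. Of 29 sets for catenins and their regulators, 1 fell in the knockout, Ctnnd1 (−0.72, SE 0.13, adjusted p = 0.0392), whose product p120 catenin binds the E-cadherin tail. Of 33 sets for CD44 and CD43 partners 1 fell, an ankyrin-1 set (Ank1 1425677_a_at, −1.62, SE 0.25, adjusted p = 0.0328), which encodes a protein of the red cell membrane skeleton. Of 45 sets for the TNF receptor 1 complex 2 fell, both of Cflar, the inhibitor of caspase-8 (−0.71 and −0.64, adjusted p = 0.0416 and 0.0383). None of the 34 sets for adaptors of the APP tail, the 25 for LRP1 ligands and adaptors and the 25 for SORL1 sorting partners passed limma (6, 2 and 8 at an unadjusted p under 0.05). The lists for catenins, for CD44 and CD43 and for TNF receptor 1 had 14, 8 and 12 sets at that unadjusted threshold. Over all probe sets 1.75% were called and 19.8% had an unadjusted p under 0.05. The sets of Timp3, Igf1r, Ank1 and Cflar are not the brightest of their genes and were named after their values were seen. Each of these knockout calls other than Ncstn was lost without GMP WT array 3, with adjusted p from 0.139 for Clstn1 to 0.172 for Igf1r. Each was lost on leaving out any of at least 5 of the 6 GMP arrays. All were lost with the Actb ratio in the fit.

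In the WT comparison 6.04% of all probe sets were higher in GMP WT and 28.8% lower. Quantile normalization or centring turned this split over all probe sets, and the counts below are on the deposited scale. Of the 34 sets for adaptors of the APP tail 3 were higher and 9 lower in GMP WT. Apba1, which encodes the adaptor X11, was higher (2.09, adjusted p = 0.00180, and 0.76 with the mean of its probe sets), and Apbb2, a FE65 family member, lower (−2.77, adjusted p = 0.000237). Of the 29 sets for catenins and their regulators 0 were higher and 15 lower, including the plakoglobin gene Jup (−1.92, adjusted p = 0.00102). Many of the 15 belong to regulators such as Apc and Gsk3b. On the brightest set of each gene 3 of 10 genes were lower. The brightest sets of the catenin genes Ctnnb1 (−0.093), Ctnna1 (−0.095) and Ctnnd1 (0.113) did not pass, although dimmer sets of Ctnnb1 and Ctnna1 were lower. Of the 25 sets of the LRP1 list 7 were higher and 7 lower. Among them were the urokinase gene Plau (1.79, adjusted p = 0.00123) and its receptor gene Plaur (−1.19, adjusted p = 0.00182). Both passed under 17 of 18 alternatives. The other was the fit without the 4 arrays whose transcripts go against the labelled sex, which leaves 1 GMP WT array. Of the 25 sets for sorting partners of SORL1 1 was higher and 1 lower, that of Pacs1 (−1.22, adjusted p = 0.000447). Of the 33 sets for CD44 and CD43 partners 13 were lower and 0 higher, and of the 45 for the TNF receptor 1 complex 12 were lower and 1 higher.

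Genes of the most similar pattern were sought among 14745 genes by the root-mean-square distance between values centred on each gene's mean over the 9 arrays. Closest to App were Lta4h at 0.12, Hmga2-ps1 at 0.13 and Mtus1 at 0.14 (log2). Closest to Aplp2 were Fzd7 at 0.10, Trak2 at 0.11 and Clic4 at 0.12, and closest to Sorl1 Slc5a3 and Kdm5a, both at 0.09, and Ifi30 at 0.10. Closest to Cdh1 were Gzmb at 0.37, Scin at 0.38 and Epx, an eosinophil granule gene, at 0.39. For Cd44 these were Tecr, Supt16 and Eif1ad (all 0.06), for Spn Rev3l, Ly6e and Rbm14 (0.05 to 0.06), for Tnfrsf1a Cnpy4, Arsa and Bscl2 (0.06 to 0.07), and for Lrp1 Otof, Slc30a3 and Tatdn1 (0.10 to 0.14). A flat gene has more near neighbours than one that varies, so these distances are not comparable between members.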

How the data were processed

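From total RNA, 5 ng was amplified and labelled as cDNA with biotin, per the labels' protocols. The values deposited by the authors are linear intensities per probe set. The submitters' processing notes name RMA without a version, and whether all arrays were processed together is not stated. Array medians were 98.3 to 103 in LSK WT and 65.4 to 68.6 in the GMP arrays. With 3 arrays a group, their number sets the precision. The log2 of the intensity of 45037 probe sets (64 controls left out) was fitted with limma 3.58.1 (R 4.3.3, lmFit and eBayes, 2-sided, 3 group means, 6 residual degrees of freedom), and p-values were adjusted by Benjamini-Hochberg over all of them. Every adjusted p printed is from limma. Symbols came from GEO's platform annotation, in which 34945 probe sets carry 1 symbol, 932 several and 9160 none. The brightest probe set of a gene is that with the highest mean over 9 arrays. Background is the 95th percentile of 27 bacterial control probe sets on each array. The members, lists and alternatives were chosen with earlier results of these data known. Named genes are all members, Ncstn, up to 4 genes of a list with the smallest p on their brightest probe set and the 3 of nearest pattern; exceptions are stated. List members without a probe set of their own symbol were not analysed here.

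Same-numbered arrays deviated together in GMP WT and LSK WT (correlations across probe sets of 0.247, 0.247 and 0.296), so the numbers may mark pairs there, judged from the data and not the labels. The reported fits leave such pairs out, and the number entered only as the replicate block among the alternatives. Same-numbered arrays of GMP NcstnKO and GMP WT did not deviate together (−0.028, 0.024 and 0.032). In data simulated for GMP NcstnKO against GMP WT over 45037 probe sets, 93 of 100 changes of 2 (log2) and 62 of 100 changes of 1 were recovered with 10 false calls. The simulated noise was independent between probe sets and held no effect of sex, RNA quality or pairing. It checks the fit, and these rates need not hold for the real arrays.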

Additional observations from a re-analysis of the deposited data

How the results depend on the processing

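The count of all probe sets called in GMP NcstnKO against GMP WT, 790 as reported, rested on the arrays and covariates used. It was 498 after quantile normalization, 1367 without the dimmest 40%, 1295 for log2 of intensity plus 16, 1 and 4 when label or transcript sex entered the limma fit and 0 for the Actb ratio (8937 probe sets had an unadjusted p under 0.05 as reported), 9 with the replicate block and 2 when fitted on these groups only. Leaving out GMP NcstnKO array 1, 2 or 3 gave 177, 5 and 8, and leaving out GMP WT array 1, 2 or 3 gave 1, 99 and 2. Without the 4 arrays whose transcripts go against the labelled sex, an alternative chosen after seeing the data in which the lone GMP arrays are assumed to vary like LSK WT, it was 0. The count of members called, 0 as reported, was 1 with either 1 row per gene, 3 without the dimmest 40% and 1 with 16 added, and 0 under the others. In GMP WT against LSK WT the count of 15710 was 6910 and 7456 with 1 row per gene (brightest set and mean), 9380 without the dimmest 40%, 10130 with the Actb ratio, 3323 without those 4 arrays, 15102 with the replicate block, and 11916 to 13807 without 1 array. Members called, 6 as reported, were 2 with the mean per gene, 2 without those 4 arrays, 5 with the replicate block, and 4 to 7 without 1 array.

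Sign changes concerned values that did not pass, with 1 exception. For GMP NcstnKO against GMP WT, label sex gave −0.24 for App 1420621_a_at, −0.065 for Cd44 1452483_a_at, and −0.026 and −0.189 for Lrp1 1448655_at and 1442849_at. Transcript sex gave 0.019 for Sorl1 1453003_at, and the Actb ratio 0.19 for App 1427442_a_at, 0.12 for Cd44 1443265_at and 0.31 for Sorl1 1426258_at. Without the 4 arrays the values were −0.31 for App 1420621_a_at, −0.15 and −0.58 for the Lrp1 sets, 0.26 for Sorl1 1453003_at, 0.62 for Cdh1 and 0.013 for Spn 1422133_at. Leaving out 1 array gave −0.14 to 0.23 for App 1420621_a_at and −0.093 to 0.213 for Cd44 1452483_a_at. For GMP WT against LSK WT, quantile normalization gave 0.13 for Lrp1 1448655_at and 0.15 for Tnfrsf1a, and centring 0.29 for Tnfrsf1a. Cd44 1434376_at was −0.21 with the mean per gene, −0.008 with the Actb ratio, −0.016 without the 4 arrays and −0.008 to 0.09 without 1 array, and Tnfrsf1a was −0.141 to 0.029 without 1 array. The exception was Ikbkg, which passed on its brightest set (−0.69) and was 0.064 with the mean per gene. The causes were not tested. Apart from the Aplp2 set named above, the replicate block ended no member's call. Sets near background limit what can be said of a fall.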
